A study of Mus musculus with 12 samples.

Results

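Libraries 11 and 12, from Cre-positive mouse embryonic fibroblasts treated with 4-hydroxytamoxifen (4-OHT), were compared with libraries 3 and 4, from the same cells given ethanol. These are 4 of the 12 RNA-seq libraries of a study of the single-stranded DNA-binding proteins Ssb1 and Ssb2, listed in the count table under their gene symbols Nabp2 and Nabp1. All genes of the table entered the comparison, and 17609 of 47517 passed the filter on low counts. Every library came from C57BL/6 fibroblasts taken at embryonic day 13.5 and immortalised with SV40 large T antigen, a viral protein that binds p53 and RB. Both genotypes carried floxed alleles of both genes. The Cre-positive cells are labelled Cre +ve, with the alleles Fl/F for Ssb1 and Fl/Fl for Ssb2, and carry RosaCreERT2, a Cre recombinase that 4-OHT moves into the nucleus, where it excises floxed DNA. They were left untreated (libraries 7 and 8) or were sampled after 5 days with ethanol, the vehicle, or with 4-OHT. The Cre-negative cells, labelled Cre -ve, with the alleles Fl/Fl for both genes, received the same agents for the same time, in 2 libraries per agent. Cre-negative cells were also left untreated (libraries 1 and 2). The labels name neither separate embryos nor separate cultures for the 2 libraries of a group, so the p-values below measure the spread between libraries, which may be technical.

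Ssb1 and Ssb2 coat single-stranded DNA in the response to DNA damage and bind the subunit INTS3, which they share with Integrator. Integrator is a large complex that travels with RNA polymerase II, cleaves the nascent RNA of small nuclear RNA genes and ends transcription early at many protein-coding genes. The genes ranked below by size of change lie outside the snRNA and histone symbols and the lists of interferon and DNA repair genes. Counts over all genes, gene types and exon classes include those groups.

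The 4 compared libraries held 27595869 to 36367012 estimated counts (all 12: 20201855 to 36367012), and the 4-OHT libraries were the deepest of the 12. Nabp1 fell from 14.5 and 15.9 CPM (its count scaled to the size of the library) in the ethanol libraries to 3.4 and 3.96 CPM with 4-OHT. Nabp2 fell from 19.8 and 22.6 CPM to 4.84 and 5.09 CPM. All 4 libraries therefore went with their labels. Fibroblast markers summed to 7926 to 8468 CPM with ethanol and 8036 to 8042 CPM with 4-OHT, and 5 of the 13 tested rose while 1 fell. The largest part of that sum was Vim, at 3177 to 3329 CPM. Thy1, Fap, Dcn and Lum were at most 0.488 CPM in each of the 4 libraries. Epithelial, haematopoietic and skeletal muscle markers were scarce. Epithelial markers summed to 2.94 to 3.88 CPM with ethanol and 3.97 to 4.10 CPM with 4-OHT, with Epcam and Esrp1 at 0, and haematopoietic markers to 2.39 to 2.91 and 3.58 to 3.65 CPM, with Adgre1, Cd3e, Tyrobp and Hbb-bs at 0. Skeletal muscle markers went from 1.31 to 1.39 CPM to 2.02 to 2.20 CPM, with Myf5, Pax7 and Actn2 at 0. Endothelial markers summed to 31.3 to 34.0 CPM with ethanol and 48.4 to 50.1 CPM with 4-OHT, and 2 of the 5 tested rose. Most of that sum was Erg, at 32.7 and 30.1 CPM with ethanol and 48.0 and 46.0 CPM with 4-OHT, while Cdh5 and Tie1 were at 0 in 3 of the 4 libraries. Neural markers summed to 196 to 198 CPM with ethanol and 154 to 155 CPM with 4-OHT, and 1 of the 7 tested rose while 2 fell. The largest part of that sum was Nes, at 105 and 107 CPM with ethanol and 65.3 and 64.2 CPM with 4-OHT. Sox2 measured 40.2 and 41.0 CPM with ethanol and 34.1 and 34.9 CPM with 4-OHT. Map2 measured 31.2 and 31.1 CPM with ethanol and 32.3 and 33.9 CPM with 4-OHT. The part of other cell types in the results below was not tested.

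Of the 17609 genes, 38.3% passed the test (edgeR quasi-likelihood, Benjamini-Hochberg adjusted p under 0.05): 3709 (21.1%) rose with 4-OHT and 3027 (17.2%) fell. Many changes were small. The change was under 1.25-fold in 3390 of the 6736 called genes, while 464 (2.64%) rose and 165 (0.937%) fell at least 2-fold. Without library 4 the number that fell at least 2-fold was 83, and without library 11 it was 98. In Cre-negative cells given the same agents 5.99% of genes passed (3.33% higher and 2.65% lower with 4-OHT), and the count there moved between 301 and 609 with any 1 of the libraries 5, 6, 9 and 10 left out. Only 229 genes called in Cre-positive cells were also called in the same direction without Cre, while 378 were called in the opposite one. The difference between the 2 genotypes' 4-OHT effects, tested in the same model, passed for 28.3% of all genes (14.5% higher and 13.8% lower with Cre). It passed with the same sign for 4188 of the 6736 genes called in Cre-positive cells. In bulk RNA fewer cells of a kind and less RNA per cell cannot be told apart.

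The 15 largest rises among genes with an average log2 CPM of 3 or more over the 12 libraries ranged from 0.96 to 1.58 on the log2 scale. All 15 also differed between the genotypes and exceeded the untreated Cre-positive libraries. An average over all libraries also admits genes that are high only without Cre. In the 4 compared libraries the mean was 8 CPM or more for 13 of the 15 (the exceptions are Serpine2 and Cd93), and all 13 passed both comparisons. They included matrix proteins and the enzymes that cut them, a transcription factor, receptors and a pair of small nucleolar RNAs. Across all genes the 2 groups' CPM values did not overlap for 67.4%, and non-overlap was a condition for this ranking.

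The largest rise of this set was that of Tnn, which encodes tenascin-W, a glycoprotein of the matrix around osteoblasts and tumour stroma. It measured 14 and 14.3 CPM with ethanol, 45.1 and 39.5 CPM with 4-OHT and 15.1 and 15.5 CPM untreated. Both 4-OHT libraries stood well above all 4 others of the line, and the log2 change was 1.58 ± 0.081 (SE; edgeR adjusted p = 8.4e-12). Of the other matrix genes in the set, Mmp3 encodes stromelysin 1, a protease that cleaves many matrix proteins. It went from 346 and 339.7 CPM to 746 and 708 CPM, a log2 change of 1.09 ± 0.043 (adjusted p = 1.26e-13), with 298 and 292 CPM in untreated cells. Here too the groups were far apart, and the Cre-negative cells had 48.3 and 54.9 CPM with ethanol and 53.9 and 55.5 CPM with 4-OHT. Mfap5, a component of elastin-associated microfibrils, measured 11.8 and 12.1 CPM with ethanol and 24.1 and 25.3 CPM with 4-OHT (log2 change 1.05 ± 0.079, adjusted p = 2.12e-09). The spread within each group was small beside the gap. The collagenase gene Mmp13 also belonged to this set, at a log2 change of 1.19.

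Inhibitors and secreted chaperones of the extracellular space followed. Serpine2, which encodes the protease inhibitor nexin 1, was near the floor of the data in this line. It had 9 and 12 counts with ethanol and 34 and 25 with 4-OHT, and 0.332 and 0.402 against 0.963 and 0.832 CPM. The Cre-negative cells had 26.4 and 28.3 CPM of the same gene with ethanol, and it met the average set for this ranking only through them. The fitted log2 change of 1.28 ± 0.32 (adjusted p = 0.00331) rests on these few counts, and the 2 genotypes differ widely in the gene apart from 4-OHT. Clu encodes clusterin, a secreted chaperone, and measured 15.7 and 17.3 CPM with ethanol and 31 and 33.2 CPM with 4-OHT (log2 change 0.96 ± 0.072, adjusted p = 2.14e-09). It was the one member of the 15 that also rose without Cre, by 0.52 (adjusted p = 0.00223), and the rise with Cre was larger by 0.44 (adjusted p = 0.00955).

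Regulators of transcription and other cell proteins rose too. Cebpd, a C/EBP family factor known as an early responder to cytokines, went from 49.4 and 47.7 CPM to 109.7 and 112 CPM (log2 change 1.19 ± 0.065, adjusted p = 2.31e-11). The untreated libraries had 48.7 and 41.4 CPM, so the 4-OHT pair stood alone. Lmcd1, a LIM domain protein that acts as a transcriptional co-regulator, measured 6.74 and 6.0 CPM with ethanol and 15.4 and 16 CPM with 4-OHT (log2 change 1.30 ± 0.090, adjusted p = 7.56e-10). Without Cre the same gene was 11.7 and 11.4 CPM with ethanol and 9.54 and 9.18 CPM with 4-OHT, and fell there by 0.31 (adjusted p = 0.0484). Rdm1, an RNA recognition motif protein related to RAD52, was not on the list of repair genes left out. It measured 9.91 and 10.6 CPM with ethanol and 23.7 and 23.7 CPM with 4-OHT (log2 change 1.21 ± 0.079, adjusted p = 3.72e-10). The ethanol and untreated values of Rdm1 (9.91 and 9.54 CPM) lay close together and well below both 4-OHT values. Fam43a, an adaptor-like gene of little known function, rose from 59.5 and 58.2 CPM to 114 and 115 CPM (log2 change 0.96 ± 0.046, adjusted p = 3.02e-12), and fell without Cre by 0.39 (adjusted p = 9.14e-05).

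Receptors were the third kind. Cd93, a C-type lectin-like receptor best known from endothelial and myeloid cells, measured 1.73 and 1.34 CPM with ethanol and 3.14 and 3.16 CPM with 4-OHT (log2 change 1.04 ± 0.17, adjusted p = 3.83e-05). It is low in this line and was 16.5 and 17 CPM in Cre-negative ethanol cells, through which it too entered the ranking. The death receptor Fas went from 9.39 and 9.69 CPM to 18.3 and 18.9 CPM, with 13.1 and 12.7 CPM untreated. Fzd10, a Wnt receptor, measured 11.1 and 10.1 CPM with ethanol, but 28.8 and 12.4 CPM with 4-OHT, so that 1 library alone stood apart. Its log2 change of 0.98 ± 0.27 (adjusted p = 0.00741) dropped to 0.23 (adjusted p = 0.537) without library 11 and failed the test without library 4 (0.91, adjusted p = 0.0553).

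**Figure D1:**
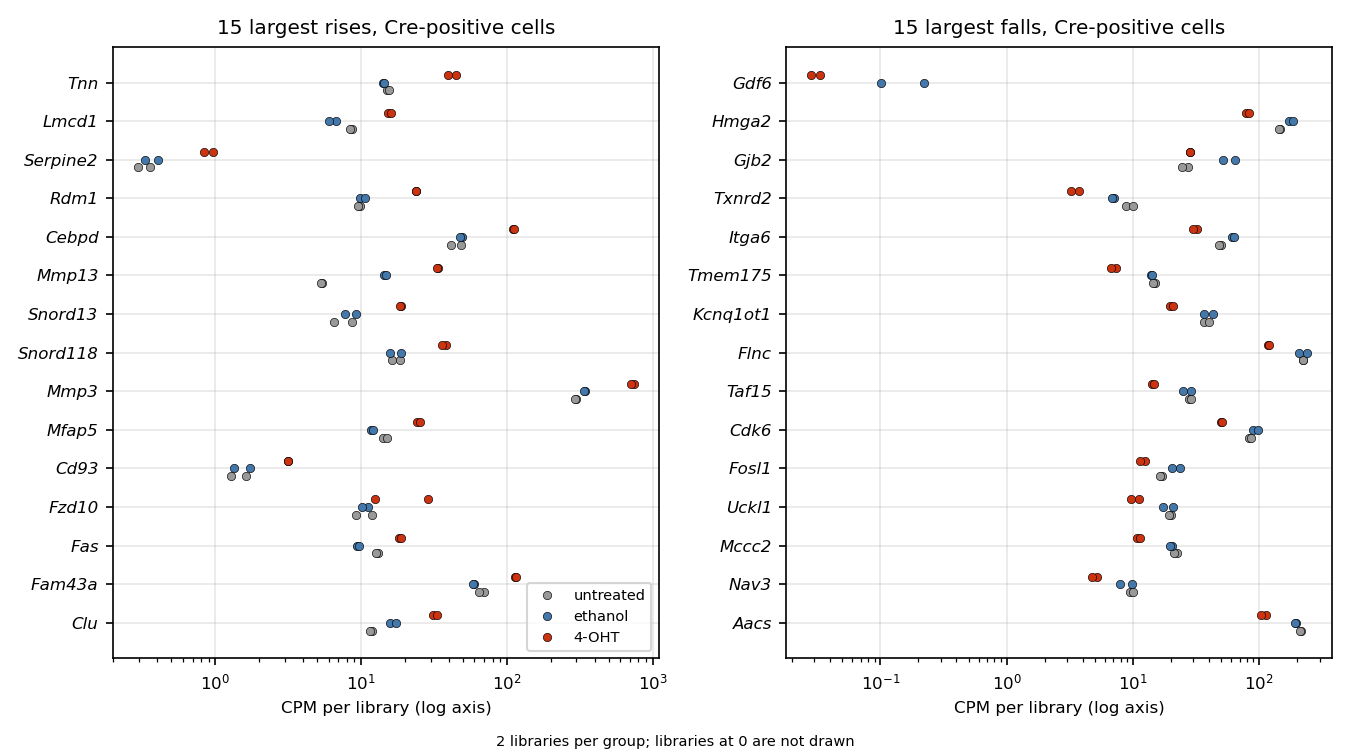
CPM per library, on a log axis, of the 15 largest rises (left) and 15 largest falls (right) in Cre-positive cells; each point is 1 library, 2 per group, coloured by untreated, ethanol or 4-OHT, and libraries at 0 are not drawn. For Tnn the 4-OHT points lie at 45.1 and 39.5 CPM and the ethanol points at 14 and 14.3 CPM, for Gjb2 the untreated points lie at 27.4 and 24.3 CPM beside the 4-OHT points, and Fzd10 has 1 4-OHT library near the ethanol pair.

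Among the 15 largest falls, 12 had a mean of 8 CPM or more in the 4 compared libraries (the exceptions are Gdf6, Txnrd2 and Nav3), and these ranged from 0.84 to 1.15 in size on the log2 scale. All 12 differed between the genotypes and 11 were also below the untreated libraries. Of all 15 the numbers were 14 and 13. The growth and cell cycle genes among them were Hmga2 and Cdk6. Cdk6, the kinase partner of D-type cyclins, measured 88.7 and 97.1 CPM with ethanol, 82.9 and 86 CPM untreated and 49.4 and 50.3 CPM with 4-OHT. The 4-OHT values were the lowest of the line and close together (log2 change -0.90 ± 0.049, adjusted p = 2.31e-11). Without Cre, Cdk6 rose with 4-OHT by 0.26 (adjusted p = 0.00283). Hmga2, an architectural chromatin protein of embryonic cells, had a log2 change of -1.15, and Fosl1, an AP-1 subunit, one of -0.88.

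Surface and cytoskeleton genes made up another portion. Itga6 encodes the laminin-binding integrin chain α6. It measured 60.5 and 63 CPM with ethanol, 49.8 and 48.4 CPM untreated and 32.1 and 30 CPM with 4-OHT (log2 change -0.99 ± 0.051, adjusted p = 8.4e-12). Both control pairs lay above both 4-OHT libraries. Flnc, which encodes the actin crosslinker filamin C, went from 205 and 239.7 CPM to 117 and 118 CPM (log2 change -0.92 ± 0.057, adjusted p = 2.01e-10). Without Cre it measured 223 and 224 CPM with ethanol and 208 and 225 CPM with 4-OHT, a change of -0.04 that did not pass (adjusted p = 0.747). Nav3, a microtubule-associated guidance protein, measured 7.96 and 9.79 CPM with ethanol and 5.15 and 4.73 CPM with 4-OHT (log2 change -0.85 ± 0.12, adjusted p = 7.17e-06). Gjb2, the gap junction protein connexin 26, fell from 51.9 and 64.1 CPM to 28.5 and 28.2 CPM, but untreated cells had 27.4 and 24.3 CPM, so the ethanol pair was the one that stood apart.

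Metabolic enzymes and an ion channel fell as well. Txnrd2 encodes the mitochondrial thioredoxin reductase and went from 7.07 and 6.8 CPM to 3.71 and 3.23 CPM (log2 change -0.99 ± 0.12, adjusted p = 2.56e-06). Aacs, acetoacetyl-CoA synthetase, measured 195 and 191 CPM with ethanol and 113 and 103 CPM with 4-OHT (log2 change -0.84 ± 0.048, adjusted p = 3.52e-11). Both genes were lower in each 4-OHT library than in any ethanol or untreated one. Mccc2, a subunit of the leucine-degrading enzyme methylcrotonoyl-CoA carboxylase, measured 20.3 and 19.7 CPM with ethanol and 10.8 and 11.3 CPM with 4-OHT. Uckl1, a uridine-cytidine kinase-like enzyme, measured 20.6 and 17.4 CPM with ethanol and 11.1 and 9.65 CPM with 4-OHT. Their log2 changes were -0.86 ± 0.077 (adjusted p = 3.11e-08) and -0.86 ± 0.088 (adjusted p = 1.55e-07). Tmem175, a potassium channel of the lysosomal membrane, went from 13.8 and 14.1 CPM to 7.28 and 6.72 CPM (log2 change -0.99 ± 0.087, adjusted p = 2.03e-08). Of the 15 largest falls 3 also fell without Cre and 2 rose there. Tmem175 was 1 of the 3, with a log2 change without Cre of -0.36 (adjusted p = 0.00712). Its fall with Cre was larger (difference -0.64, adjusted p = 0.000324).

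Taf15, an RNA-binding protein of the FET family, measured 24.8 and 28.8 CPM with ethanol, 27.6 and 28.8 CPM untreated and 14 and 14.8 CPM with 4-OHT (log2 change -0.90 ± 0.079, adjusted p = 2.19e-08). Kcnq1ot1 is a long unspliced RNA that runs antisense to Kcnq1 and takes part in imprinting of its cluster. It went from 36.6 and 43.4 CPM to 19.5 and 20.9 CPM (log2 change -0.99 ± 0.099, adjusted p = 1.23e-07). How the counting treated strand is not stated in any source used, so its reads and those of Kcnq1 cannot be told apart with certainty. Gdf6, a bone morphogenetic protein family ligand, entered this set, through its level in Cre-negative cells, with 6 and 3 counts against 1 and 1. Its fitted change rests on these few counts and is not read as a fold. Its call was lost without library 3 (adjusted p = 0.318), 11 (adjusted p = 0.174) or 12 (adjusted p = 0.113), and its sign turned with the untreated libraries joined to the reference. The Cre-negative cells had 68.5 and 67.9 CPM of Gdf6.

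The direction of change went with the number of exons a gene has. Exons were counted in the annotated transcript with most of them, for 12444 tested protein-coding genes. Histone, interferon and repair genes were not left out of these classes, and their part was not tested. Of 367 genes with 1 exon, 147 (40.1%) rose and 15 (4.09%) fell, and their median log2 change was 0.22. Of 1952 genes with 20 exons or more, 255 (13.1%) rose and 814 (41.7%) fell, and their median was -0.12. The classes between lay in order: the share that rose was 32.5% with 2 to 3 exons, 31.2% with 4 to 9 and 19.7% with 10 to 19, and the share that fell was 9.49%, 11.2% and 24.5%. In Cre-negative cells the corresponding medians were -0.03 for 1 exon and 0 for 20 or more, with 8 of the 1-exon genes higher and 33 lower, and 92 of the 20-exon class higher and 73 lower. In the test of the difference between genotypes, 120 of the 1-exon genes were higher with Cre and 18 lower, against 178 and 669 of the 20-exon class. That difference takes in the changes without Cre, where 3.33% of all genes were higher and 2.65% lower. Against untreated Cre-positive cells 151 of the 1-exon genes rose and 25 fell, and 323 and 772 of the 20-exon class.

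The ordering could be read library by library. The median of log2(CPM over the mean of the 12 libraries) for 1-exon genes was 0.116 and 0.130 in the 4-OHT Cre-positive libraries and between -0.097 and -0.035 in the other 10. For genes with 20 exons or more it was -0.102 and -0.098 in the 4-OHT libraries and between -0.011 and 0.040 in the other 10. The 4-OHT libraries did not overlap with any other group in either class.

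Because exon number can go along with gene span, transcript length and expression level, the classes were also compared within ranges of each. Among genes spanning 20 to 50 kb, 46.1% of those with 20 exons or more fell and 11.7% rose, against 13.9% and 25.4% with 2 to 3 exons. Among genes with 4 to 8 kb of exonic sequence, 39.4% of the 20-exon class fell and 14.3% rose, while of 42 genes with 1 exon 2.38% fell and 54.8% rose. Among genes with 16 to 64 CPM, 46.9% of the 20-exon class fell and 51.9% of 1-exon genes rose. With 2 to 4 kb of exonic sequence the 20-exon class held 76 genes, of which 25% fell and 9.21% rose. By gene span, among genes with 10 to 19 exons the share that fell ranged from 15.2% at 200 kb or more to 26.8% at 50 to 100 kb. These are descriptions over genes, which are not independent replicates, and the part of depth was not tested: the 4-OHT libraries, the deepest, also had more genes with a count (25463 and 25832) than the ethanol libraries (24474 and 24625). The number of 20-exon genes that fell ranged from 641 to 867 with 1 library left out, and the number that rose was 152 without library 3 and 160 without library 11. The named sets differ in the same sense, with a median of 7 exons for the 15 largest rises and 15 for the 15 largest falls (7 and 13 for those with a mean of 8 CPM or more in the compared libraries).

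**Figure D2:**
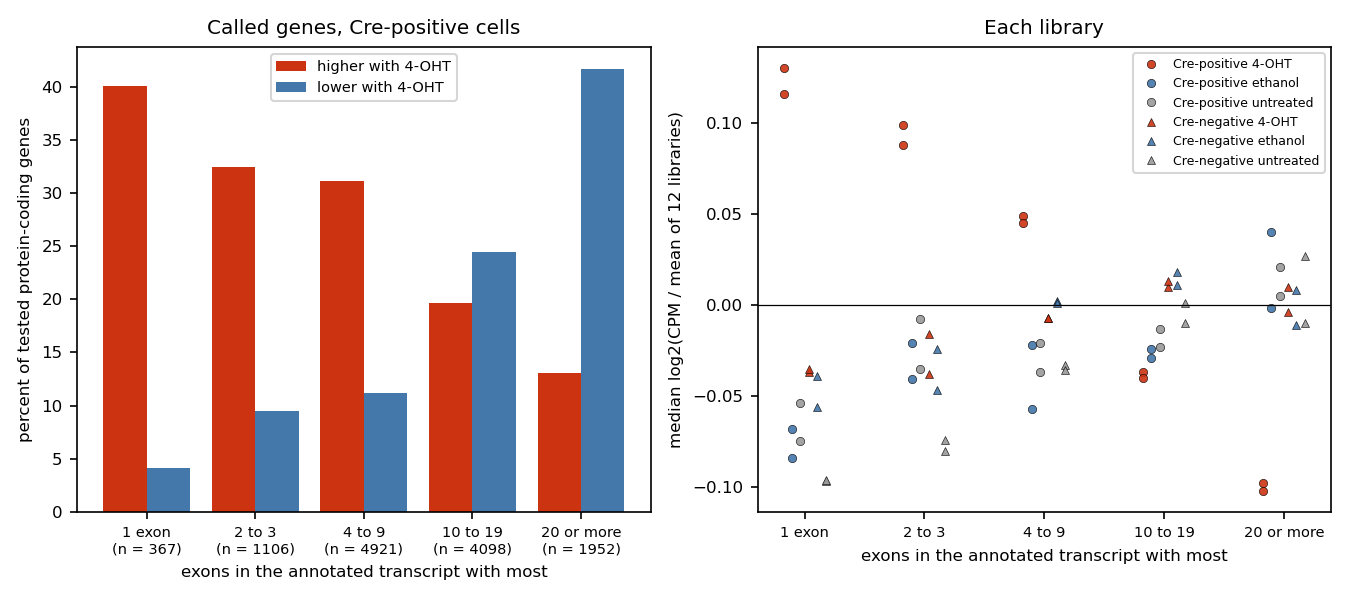
Left: percent of tested protein-coding genes that rose or fell with 4-OHT in Cre-positive cells, by exon number. Right: median log2(CPM over the mean of the 12 libraries) of each class in each library, circles for Cre-positive and triangles for Cre-negative cells. The share that fell grows from 4.09% with 1 exon to 41.7% with 20 or more, and the 4-OHT Cre-positive libraries are highest for 1-exon genes (0.116 and 0.130) and lowest for genes with 20 or more (-0.102 and -0.098).

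Most TEC and sense intronic RNAs annotated inside genes of the same strand had lower log2 changes than their hosts. TEC is the annotation's label for transcribed loci that still await an experimental check. Of 656 tested, 411 lie whole within a tested protein-coding gene on the same strand. Of these 100 (24.3%) fell and 3 rose, against 17.2% and 21.1% of all genes, and their median log2 change was -0.47, while that of their 280 host genes was -0.03. The log2 change of the RNA was below that of its host in 321 of 411 cases (78.1%). In Cre-negative cells the median of the same RNAs was 0.14, with 1 higher and none lower at the same threshold. Of 92 sense intronic RNAs, which the annotation places in introns of the same strand, 19 fell and 4 rose, with a median of -0.39 against -0.05 for their 66 hosts. The 83 TEC genes on the strand opposite their host had a median of -0.23, with 13 that fell and 2 that rose. Other types were nearer an even split. The RNA was below its host for 55.9% of snoRNAs and 57.9% of processed pseudogenes on the same strand. On the opposite strand it was 56.3% for antisense RNAs, 59.8% for processed pseudogenes and 63% for lincRNAs.

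These RNAs are faint, with a median of 0.957 CPM in the ethanol libraries, and the libraries within a group differed. Summed over the 411, TEC RNAs made up 677 and 795 CPM with ethanol, 705 and 816 CPM untreated and 517 and 581 CPM with 4-OHT, so the 4-OHT libraries were the lowest of the line and did not overlap with the others. Cre-negative cells had 513 and 512 CPM with ethanol, 542 and 579 CPM with 4-OHT and 632 and 713 CPM untreated. Thus the Cre-positive 4-OHT level was inside the range of the Cre-negative libraries. The number that fell was 35 without library 4 and 42 without library 11, and for sense intronic RNAs it was 9 without either. Reads of unspliced host RNA and of a separate RNA inside the host cannot be told apart in these counts.

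Named examples follow, the first with the change of its host. Ppnr, a sense intronic RNA inside the Wnt effector gene Tcf7l2, measured 2.73 and 3.25 CPM with ethanol and 0.963 and 1.43 CPM with 4-OHT (log2 change -1.34 ± 0.24, adjusted p = 0.000167). The log2 change of Tcf7l2 was -0.15 (adjusted p = 0.375). The TEC RNA Gm37060, inside Rasal2, measured 3.21 and 2.92 CPM with ethanol and 1.16 and 1.3 CPM with 4-OHT (log2 change -1.32 ± 0.22, adjusted p = 8.91e-05). Each of these RNAs was lower in both 4-OHT libraries than in both ethanol libraries. Of 48 genes annotated as bidirectional promoter lncRNA, long RNAs from shared promoters, 13 (27.1%) rose and none fell. The share that rose was near the 21.1% of all genes, of which 17.2% fell. Their median log2 change was 0.41, at a median level of only 1.04 CPM with ethanol, and against untreated cells 9 rose and 2 fell.

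**Figure D3:**
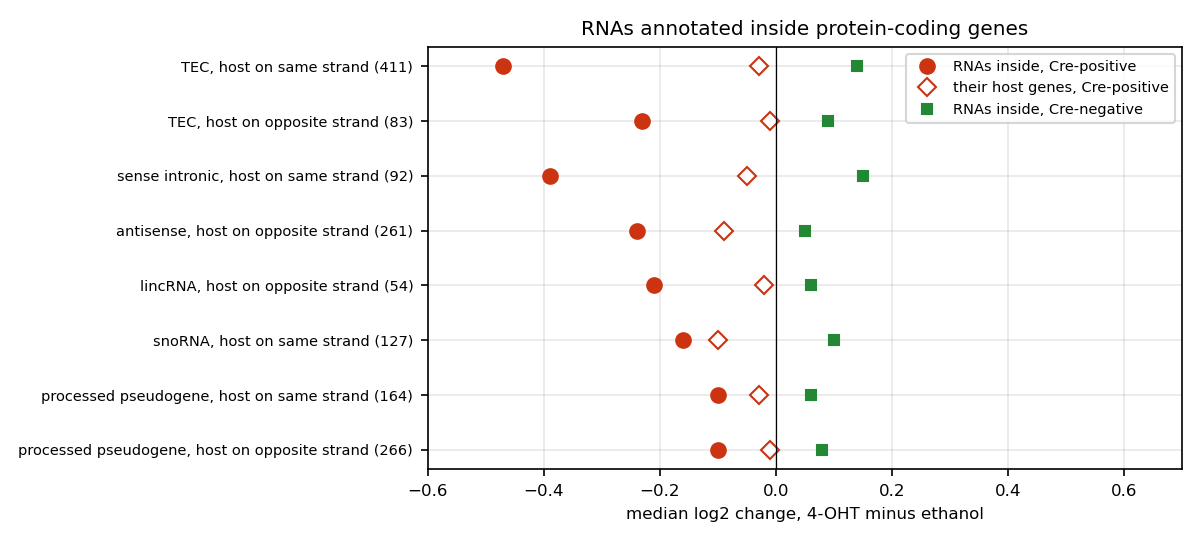
Median log2 change from ethanol to 4-OHT of RNAs annotated within tested protein-coding genes, by annotated type and strand (numbers of RNAs in brackets): filled circles, the RNAs in Cre-positive cells; open diamonds, their host genes; squares, the RNAs in Cre-negative cells. TEC and sense intronic RNAs lie furthest left (-0.47 and -0.39), their hosts near 0 (-0.03 and -0.05), and the same RNAs in Cre-negative cells above 0 (0.14 and 0.15).

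Small nucleolar RNAs (snoRNAs) guide the modification and cutting of ribosomal RNA. Most mouse snoRNAs are cut from introns of a host, and a few have promoters of their own. Snord118 (U8) and Snord13 (U13), which act in ribosomal RNA processing and are transcribed by RNA polymerase II from promoters of their own, were among the 15 largest rises. Of 127 snoRNAs inside tested protein-coding genes of the same strand, 17 (13.4%) fell and 4 (3.15%) rose, both below the 17.2% and 21.1% of all genes, with a median of -0.16 against -0.10 for their 90 hosts. Of all 159 tested snoRNAs 7 rose and 21 fell. Against untreated cells 14 rose and 8 fell, with a median of 0.02, where 3697 of all 17609 genes rose and 3204 fell. Most snoRNAs were called in neither comparison, and which direction held more of the calls depended on the reference. RNAs this short are poorly kept by the column extraction and library preparation used, which applies to every library. The sequences of Snord118 and of a pair that fell follow, as DNA letters 5′ to 3′ from GENCODE M21 transcripts on GRCm38. Capitals mark TGATGA (the C box) and CTGA (the D box) that define the box C/D class. Both were searched on the transcript strand only and do not overlap each other.
Snord118 (chr11:69073427-69073561, plus strand): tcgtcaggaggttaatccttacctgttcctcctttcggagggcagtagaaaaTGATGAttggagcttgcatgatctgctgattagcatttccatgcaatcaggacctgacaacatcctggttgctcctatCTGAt
Snord49a (chr11:62603450-62603521, plus strand): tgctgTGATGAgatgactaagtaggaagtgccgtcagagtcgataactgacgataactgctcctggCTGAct
Snord49b (chr11:62603079-62603150, plus strand): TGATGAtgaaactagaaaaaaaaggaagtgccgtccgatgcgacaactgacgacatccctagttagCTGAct
TGATGA followed by CTGA within 10 nt of the 3′ end occurred in 74.3% of annotated snoRNAs named Snord with 72 to 135 nt, and in 0.254% of annotated RNAs of all other types of that length. Snord118 has 135 nt, with a longer stretch before the C box (which starts at position 53) than the intronic pair of 72 nt each (positions 6 and 1). Snord49a and Snord49b lie within 1 host, the spliced non-coding RNA 2410006H16Rik.

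Snord118 measured 18.8 and 15.9 CPM with ethanol, 16.3 and 18.4 CPM untreated and 38.5 and 35.9 CPM with 4-OHT. Both 4-OHT values lay above all others of the line, and the log2 change was 1.10 ± 0.076 (adjusted p = 8e-10). It exceeded the change without Cre by 0.85 (adjusted p = 1.89e-05). Snord13 measured 9.28 and 7.71 CPM with ethanol, 6.49 and 8.65 CPM untreated and 18.8 and 18.4 CPM with 4-OHT (log2 change 1.14 ± 0.11, adjusted p = 5.29e-08), and again the groups did not overlap. Of the intronic pair, Snord49a measured 7.07 and 5.33 CPM with ethanol and 3.99 and 3.4 CPM with 4-OHT (log2 change -0.73 ± 0.14, adjusted p = 0.000389), with 5.35 and 4.87 CPM untreated. Snord49b measured 4.64 and 3.19 CPM with ethanol and 2.49 and 2.13 CPM with 4-OHT (-0.74 ± 0.18, adjusted p = 0.0026), and its call was lost without library 3 (-0.48, adjusted p = 0.0699).

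Among genes that build ribosomes and nucleotides more fell than rose. Of 53 tested ribosome biogenesis genes 28 fell and 3 rose, with a median log2 change of -0.13, against 17.2% lower, 21.1% higher and a median of 0.03 over all genes. The number that rose was 1 without library 3 and 0 without library 4, 11 or 12. Against untreated cells 16 fell and 7 rose, where 3204 of all 17609 genes fell and 3697 rose. Ncl encodes nucleolin, a main protein of the nucleolus, and measured 447 and 445 CPM with ethanol, 424 and 432 CPM untreated and 304 and 297 CPM with 4-OHT (log2 change -0.57 ± 0.042, adjusted p = 1.6e-09). All 4 control libraries lay above both 4-OHT libraries. Nop56, a core protein of box C/D snoRNPs, went from 306 and 299.9 CPM to 210.3 and 200.2 CPM (log2 change -0.56 ± 0.039, adjusted p = 8.1e-10). Gar1, of the H/ACA class, measured 16.8 and 17.1 CPM with ethanol and 10.6 and 11.2 CPM with 4-OHT (-0.64), and Rrp12, needed for export of pre-ribosomes, 68.3 and 65.9 CPM with ethanol and 44.7 and 42.8 CPM with 4-OHT (-0.62). The methyltransferase gene Fbl measured 8.4 and 8.21 CPM with ethanol and 7.33 and 8.16 CPM with 4-OHT, and its change of -0.10 did not pass (adjusted p = 0.437). The list's genes have a median of 15 exons, against 6 over all tested genes, non-coding types included. The part of exon number in this and the following lists was not tested. Of protein-coding genes alone 24.9% rose and 20% fell. These shares and the 21.1% and 17.2% of all genes are the background for each list that follows.

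Of 38 genes of nucleotide and one-carbon synthesis 22 fell and 4 rose (median -0.17, 12 exons), of which 2 rose without library 12, and against untreated cells 20 fell and 3 rose. Cad carries the opening steps of pyrimidine synthesis in 1 protein. It measured 128 and 139.6 CPM with ethanol, 139 and 139.6 CPM untreated and 77.2 and 80.8 CPM with 4-OHT (log2 change -0.76 ± 0.054, adjusted p = 9.31e-10). The 4-OHT values were about as far below the untreated as below the ethanol ones. The purine enzymes Adsl and Pfas changed by -0.52 and -0.47, from 101 and 92.8 to 68.8 and 66.1 CPM and from 109 and 122 to 84.6 and 82.5 CPM. Tyms, the thymidylate synthase, measured 90.8 and 83.2 CPM with ethanol and 85.6 and 84.3 CPM with 4-OHT and did not pass (-0.03, adjusted p = 0.61).

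Of 24 aminoacyl-tRNA synthetase genes 9 fell and 1 rose (0 without any 1 of the 4 libraries), and 11 and 0 against untreated cells. Vars, which charges valine tRNA, went from 174 and 186 CPM to 131 and 134 CPM (-0.44, adjusted p = 8.29e-08). Of 47 translation factors 18 fell and 9 rose, or 5 without library 4. Eif4g3, a scaffold of the cap-binding complex, measured 16.5 and 18 CPM with ethanol and 9.68 and 9.89 CPM with 4-OHT (log2 change -0.82 ± 0.096, adjusted p = 9.96e-07). Of 25 genes of fatty acid synthesis and desaturation 14 fell and 4 rose, with 2 that rose without library 3, 4 or 12, and 16 and 2 against untreated cells. Fasn, the fatty acid synthase, went from 439 and 502 CPM to 306 and 307 CPM (log2 change -0.62 ± 0.050, adjusted p = 6.64e-09), below the 509 and 486 CPM of untreated cells. Dgat2, which makes triglyceride, rose by 0.57 from 3.54 and 3.72 CPM to 5.66 and 5.13 CPM. Of 22 glycolysis genes 4 rose and 6 fell, beside 21.1% and 17.2% of all genes, and against untreated cells 1 rose and 12 fell. Hexokinase 2 (Hk2) fell from 57.5 and 66 CPM to 39.8 and 38.3 CPM (-0.66, adjusted p = 1.41e-07). Lactate dehydrogenase A (Ldha) measured 789.7 and 738 CPM with ethanol and 769 and 739 CPM with 4-OHT (-0.02, adjusted p = 0.755).

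The machinery of transcription and chromatin changed in both directions. Of 46 genes for RNA polymerase II subunits and general factors 12 rose and 11 fell, near the 21.1% and 17.2% of all genes. Without library 4 or 11, 7 rose. Polr2a, the largest subunit, with 29 exons, measured 64.4 and 83.2 CPM with ethanol, 77.8 and 99.4 CPM untreated and 38.4 and 45.4 CPM with 4-OHT (log2 change -0.82 ± 0.12, adjusted p = 1.64e-05). The libraries within each group differed more than for most genes, but the 4-OHT pair lay below all 4 controls. Taf7, a TFIID subunit with 2 exons, went the other way, from 16.4 and 15.6 CPM to 27 and 23.2 CPM (log2 change 0.66 ± 0.081, adjusted p = 1.99e-06). Mediator, which links enhancers to the polymerase, did so too. Med12, with 46 exons, measured 46.6 and 56 CPM with ethanol and 34.8 and 36.4 CPM with 4-OHT (-0.53), and Med31, with 4 exons, 10.4 and 10.2 CPM with ethanol and 15.9 and 16.5 CPM with 4-OHT (0.66). Over the 32 Mediator genes tested 12 rose and 7 fell, beside 21.1% and 17.2% of all genes.

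Of 36 transcription elongation factors 16 fell and 5 rose, but 11 fell and 11 rose against untreated cells, and 10 fell without library 12. Supt4a, a small subunit of the pausing factor DSIF, rose from 15.8 and 16.2 CPM to 26.3 and 24 CPM (log2 change 0.65 ± 0.070, adjusted p = 2.93e-07), while Cdc73, of the Paf1 complex, fell from 45.6 and 49 CPM to 33.9 and 34.7 CPM (-0.47 ± 0.084, adjusted p = 0.000174). The 2 genes thus moved apart in both 4-OHT libraries. Of 42 Polycomb and trithorax genes 16 fell and 7 rose. Without library 4, 9 fell, and 3 rose without library 11 and 4 without library 3 or 12. Phf19, an accessory protein of PRC2, went from 12.8 and 13.5 CPM to 8.04 and 7.19 CPM (-0.79 ± 0.087, adjusted p = 4.98e-07) and Suz12, a PRC2 core subunit, from 147 and 148 CPM to 120.1 and 119.8 CPM (-0.30, adjusted p = 1.25e-05). Ezh2, the PRC2 methyltransferase, measured 69.2 and 68.7 CPM with ethanol and 69.4 and 69.8 CPM with 4-OHT (0.01, adjusted p = 0.832). The histone methyltransferase genes Kmt2a and Kmt2d had log2 changes of -0.56 and -0.61 (adjusted p = 0.00152 and 0.00115), and both calls were lost without library 4, at -0.32 (adjusted p = 0.0824) and -0.31 (adjusted p = 0.0846).

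Of 41 SWI/SNF and CHD remodeller genes 17 fell and 5 rose, with a median of 29 exons per gene. Without library 11, 11 fell and 2 rose, and 3 rose without library 3, 4 or 12. Chd4, the NuRD ATPase, went from 382 and 423 CPM to 324 and 325 CPM (-0.31 ± 0.043, adjusted p = 7.32e-06), and Smarca4 (BRG1) from 227 and 235 CPM to 197 and 188 CPM (-0.26 ± 0.037, adjusted p = 1.17e-05). Of 24 cohesin and condensin genes, which fold and pair chromosomes, 9 fell and 3 rose, beside 17.2% and 21.1% of all genes. Of 31 nuclear pore genes 16 fell and 3 rose (median -0.15, 18 exons), of which 1 rose without library 3 or 4, and against untreated cells 15 fell and 5 rose. Nup205, a scaffold nucleoporin of the inner ring, measured 368 and 360.3 CPM with ethanol, 373 and 352 CPM untreated and 288 and 288 CPM with 4-OHT (-0.34 ± 0.038, adjusted p = 4.76e-07). The 2 values within each group were close and the 4-OHT pair stood below all others. Nup188 and Nup160, also scaffold proteins, changed by -0.45 and -0.42. Of 31 kinesin genes 10 fell and 2 rose (1 without library 4 or 11). The mitotic motor gene Kif15 fell, from 128 and 125 CPM to 85.6 and 90 CPM (-0.52, adjusted p = 5.2e-09). Of 45 ubiquitin-specific proteases 17 fell and 7 rose (4 without library 3 or 12, 2 without library 4 or 11).

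Among genes of the lysosome and of membrane traffic more rose than fell. Of 38 lysosomal enzymes and membrane proteins 18 rose and 5 fell, beside 21.1% and 17.2% of all genes. Against untreated cells 22 rose and 6 fell. The median log2 change against ethanol was 0.09, and the median exon number was 11. Without library 12 only 2 fell. Npc2, which hands cholesterol out of the lysosome, measured 251 and 230.2 CPM with ethanol, 259 and 244 CPM untreated and 326 and 325 CPM with 4-OHT (log2 change 0.44 ± 0.042, adjusted p = 8.1e-08). Both 4-OHT values were above all 4 controls. Smpd1, the acid sphingomyelinase, rose by 0.43, from 78 and 74.5 CPM to 103 and 103 CPM. Cathepsin D (Ctsd) and Lamp1, both abundant, rose by 0.27 and 0.24. Hexa, a subunit of hexosaminidase, measured 142 and 135 CPM with ethanol and 145 and 138 CPM with 4-OHT (0.03, adjusted p = 0.608), and Mcoln1, a lysosomal calcium channel with 14 exons, fell from 33.8 and 31 CPM to 25.2 and 22.8 CPM (-0.43, adjusted p = 1.26e-05).

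The vacuolar ATPase is the pump that acidifies lysosomes, and 9 of its 15 subunit genes rose while 2 fell (1 without library 4 or 11), with a median of 0.21. Atp6v1f, a subunit of the catalytic part, measured 42.3 and 41.3 CPM with ethanol and 57.4 and 58 CPM with 4-OHT (log2 change 0.47 ± 0.051, adjusted p = 3.92e-07). Atp6v0b, of the membrane part, measured 89.8 and 84.4 CPM with ethanol and 118 and 116 CPM with 4-OHT (0.43 ± 0.044, adjusted p = 1.65e-07). For both the groups were separate. Of 34 autophagy genes 14 rose and 3 fell, but 8 rose without library 4. Map1lc3a, which coats the autophagosome membrane, went from 55.7 and 52.5 CPM to 74.9 and 77.9 CPM (0.50 ± 0.048, adjusted p = 6.72e-08), while the cargo receptor Sqstm1 measured 339 and 308 CPM with ethanol and 315 and 293 CPM with 4-OHT (-0.09, adjusted p = 0.139; without library 4 -0.16, adjusted p = 0.0198). Of 59 genes with Rab symbols, which hold Rab GTPases, switches of vesicle traffic, and regulators such as Rab3gap2, 24 rose and 6 fell. Rab27b, of secretory vesicles, rose from 46.6 and 42.2 CPM to 71.7 and 73.9 CPM (0.71 ± 0.059, adjusted p = 8.16e-09), and Rab3gap2, a regulator with 35 exons, fell from 109.5 and 109.7 CPM to 67.4 and 64.9 CPM (-0.73 ± 0.041, adjusted p = 3.07e-11). Of 56 genes for COPI, COPII and Golgi traffic 24 rose and 9 fell, and 23 and 15 against untreated cells.

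The proteasome list depended on the reference. Of 37 genes for subunits and activators 16 rose and 3 fell against ethanol, but 6 rose and 8 fell against untreated cells. Without libraries 4 and 11, 8 and 9 rose. Psmb6, a catalytic subunit, measured 141 and 134 CPM with ethanol, 158 and 148 CPM untreated and 165 and 165 CPM with 4-OHT (0.26, adjusted p = 3.3e-05). Psme3, a proteasome activator, fell from 87.2 and 94.2 CPM to 64.3 and 72.5 CPM (-0.41, adjusted p = 4.84e-06), with 76.1 and 70.6 CPM untreated, where the values overlap those with 4-OHT. Antioxidant and glutathione genes reversed in the same manner, with 23 of 48 that rose and 8 that fell against ethanol, and 9 that rose and 23 that fell against untreated cells. Nqo1, a quinone reductase under Nrf2, measured 124 and 121 CPM with ethanol and 137 and 137 CPM with 4-OHT (0.16, adjusted p = 0.00201), yet 214 and 212 CPM untreated. Without library 11, 15 members of this list rose and 5 fell. Hmox1, haem oxygenase 1, was higher than both references at 94.3 and 90.8 CPM, against 70.4 and 70.7 CPM with ethanol and 71.2 and 72.6 CPM untreated (0.39, adjusted p = 4.08e-07). The drug and glutathione exporter Abcc1, with 31 exons, was lower than both at 197 and 187 CPM, against 313 and 313 CPM with ethanol and 327 and 319 CPM untreated (-0.70, adjusted p = 2.31e-11).

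Among heat shock genes, 8 of 31 rose and 6 fell against ethanol, near the 21.1% and 17.2% of all genes. Against untreated cells 4 rose and 10 fell, where 3697 of all 17609 genes rose and 3204 fell. The small heat shock protein gene Cryab nonetheless went from 36.4 and 44.1 CPM to 73.2 and 82.5 CPM (log2 change 0.95 ± 0.079, adjusted p = 1.05e-08), with 53.9 and 47.6 CPM untreated. Hspa1b, an inducible HSP70 with 1 exon, measured 12.4 and 11.5 CPM with ethanol, 16.6 and 15.8 CPM untreated and 18.6 and 17.3 CPM with 4-OHT (0.59, adjusted p = 7.95e-06), so the ethanol pair was the lowest.

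Signalling genes came next. Of 55 TGF-β and BMP genes 25 rose and 10 fell, beside 21.1% and 17.2% of all genes (33 and 2 against untreated cells). The number that fell was 4 without library 4 or 11 and 5 without library 12. The ligand gene Inhbb, which encodes a chain of activin, measured 4.57 and 4.42 CPM with ethanol, 6.84 and 6.88 CPM untreated and 7.73 and 7.72 CPM with 4-OHT (0.78 ± 0.12, adjusted p = 2.37e-05). The ethanol pair was the lowest of the line. Tgfb1 measured 6.89 and 9.76 CPM with ethanol and 8.97 and 9.59 CPM with 4-OHT, overlapping, and did not pass (0.15, adjusted p = 0.399), though without library 4 it did (0.43, adjusted p = 0.0287). Bmpr1b, a BMP receptor, went from 2.62 and 2.65 CPM to 3.65 and 4.33 CPM (0.59, adjusted p = 0.00374). Id4, a nuclear target of BMP signals, rose from 2.25 and 2.21 CPM to 3.96 and 4.23 CPM (0.87 ± 0.16, adjusted p = 0.0002), with 1.53 and 1.23 CPM untreated.

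Of 55 Wnt genes 19 rose and 5 fell, beside 21.1% and 17.2% of all genes (20 and 2 against untreated cells). Their median log2 change was 0.22, and 3 fell without library 4. Wnt5a, a ligand of the non-canonical branch, measured 8.73 and 9.25 CPM with ethanol and 11.5 and 11.9 CPM with 4-OHT (0.37, adjusted p = 0.00338), a call that DESeq2 did not make (adjusted p = 0.0895). The receptor gene Fzd8, with 1 exon, went from 41 and 35.6 CPM to 59.7 and 58.9 CPM (0.63 ± 0.061, adjusted p = 8.6e-08). Sfrp2, a secreted Wnt-binding protein, measured 64.5 and 69.6 CPM with ethanol, 45.1 and 42.9 CPM untreated and 115 and 117 CPM with 4-OHT (0.79 ± 0.051, adjusted p = 2.67e-10). Its values rose from untreated through ethanol to 4-OHT without overlap, and it rose without Cre as well, by 0.26 (adjusted p = 0.00439; difference 0.53, adjusted p = 1.77e-05). Lgr5, a receptor of R-spondins, rose by 0.68 from 2.5 and 3.12 CPM to 4.25 and 4.86 CPM, into the range of the untreated 4.09 and 4.57 CPM. Axin2, a common target of canonical Wnt signals, measured 7.77 and 7.61 CPM with ethanol and 10.5 and 8.12 CPM with 4-OHT and did not pass (0.28, adjusted p = 0.214).

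Of 52 growth factor and receptor tyrosine kinase genes 17 rose and 11 fell, beside 21.1% and 17.2% of all genes. Pdgfb, a mitogen for mesenchymal cells, rose from 2.1 and 2.38 CPM to 4.59 and 4.7 CPM (1.05 ± 0.16, adjusted p = 2.89e-05), with 3.85 and 3.0 CPM untreated. Fgf10 and its receptor gene Fgfr2 rose together. Fgf10 measured 8.84 and 9.45 CPM with ethanol and 13.9 and 13.8 CPM with 4-OHT (0.60), and Fgfr2 126 and 120.3 CPM with ethanol and 185 and 180.4 CPM with 4-OHT (0.57), with 98.2 and 102 CPM untreated. Of 20 genes of the insulin-like growth factor axis 9 rose and 3 fell. The binding protein gene Igfbp3 went from 4.72 and 4.49 CPM to 8.75 and 8.82 CPM (0.93, adjusted p = 8.83e-06). Igfbp2, of the same family, went from 7.59 and 6.3 CPM to 13.1 and 13 CPM (0.91, adjusted p = 6.63e-06). The receptor gene Igf1r, with 21 exons, fell from 143 and 168 CPM to 121 and 124 CPM (-0.35, adjusted p = 0.000623).

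Of 44 genes for enzymes that build or trim hyaluronan and glycosaminoglycans 22 rose and 3 fell (17 and 3 against untreated cells), with a median of 5 exons. The number that fell was 0 without library 4 and 1 without library 11 or 12. Chst11, a chondroitin sulfotransferase, measured 5.53 and 6.24 CPM with ethanol, 5.27 and 5.46 CPM untreated and 10.1 and 11 CPM with 4-OHT (0.83 ± 0.099, adjusted p = 1.15e-06). Cemip, which degrades hyaluronan, has 29 exons and went from 40.2 and 42.2 CPM to 73.7 and 71.7 CPM (0.82 ± 0.073, adjusted p = 2.76e-08). Both were higher in each 4-OHT library than in any control of the line. The hyaluronan synthase gene Has2 measured 22 and 22.3 CPM with ethanol and 23.7 and 21.4 CPM with 4-OHT (0.03, adjusted p = 0.846). Serpins, most of them protease inhibitors, rose in 11 of 19 cases (7 with DESeq2) and fell in 1 (0 without library 4 or 12, 2 without library 3). Serpina3g went from 2.84 and 3.39 CPM to 7.7 and 7.62 CPM (1.30 ± 0.16, adjusted p = 1.39e-06).

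Adhesion and channel genes changed in both directions. Cdh11, the cadherin of mesenchymal cells, measured 103 and 103 CPM with ethanol, 82.6 and 84 CPM untreated and 153 and 149.5 CPM with 4-OHT (0.55 ± 0.042, adjusted p = 2.82e-09). It was at most 0.923 CPM in every Cre-negative library, so the genotypes differ in it apart from 4-OHT. Among integrins, Itga9 and Itga8 rose, from 5.42 and 5.4 to 9.2 and 8.32 CPM and from 36.3 and 39 to 54 and 53.7 CPM (0.70 and 0.52), while Itga5, the fibronectin receptor chain, and Itga7, a laminin receptor chain, fell by 0.46 and 0.47. Over the 30 integrin and cell surface proteoglycan genes 10 rose and 8 fell, beside 21.1% and 17.2% of all genes. Cacna1i, a T-type calcium channel, measured 46.5 and 44.5 CPM with ethanol, 64.9 and 55.6 CPM untreated and 80.7 and 86.4 CPM with 4-OHT (0.88 ± 0.076, adjusted p = 1.97e-08), with 37 exons. Piezo1, the stretch-activated channel, went the other way, from 97.2 and 104 CPM to 59.4 and 62.4 CPM (-0.73 ± 0.057, adjusted p = 3.96e-09). Among 338 zinc finger genes with Zfp symbols, most of them with few exons (median 5), 98 rose and 24 fell. With DESeq2 57 of these rose, and without library 12 the number that fell was 14.

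**Figure D4:**
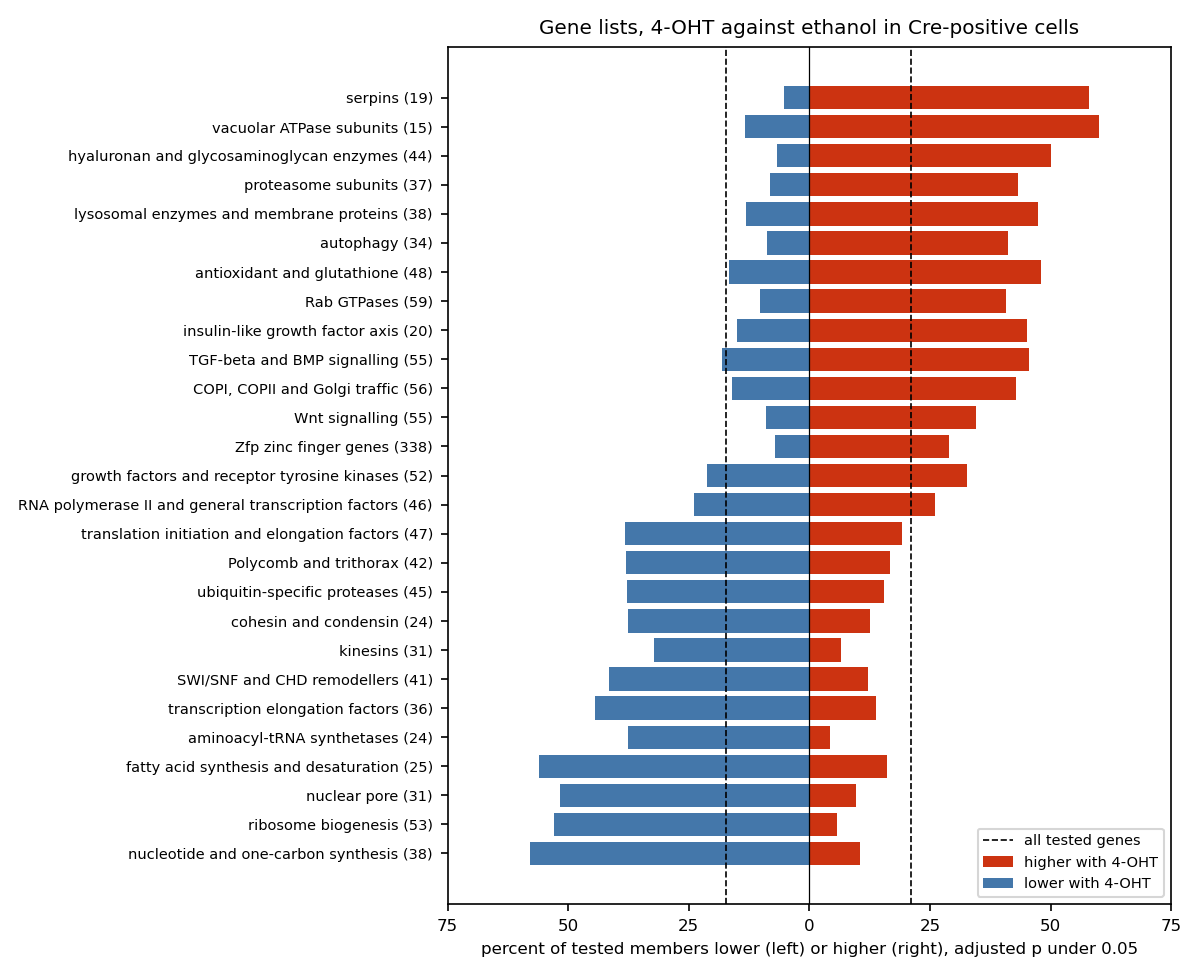
Percent of tested members that fell (left, blue) or rose (right, red) with 4-OHT in Cre-positive cells for 27 gene lists, with the number tested in brackets; the dashed lines mark 17.2% and 21.1% of all tested genes. Nucleotide synthesis (22 of 38), fatty acid synthesis (14 of 25) and ribosome biogenesis (28 of 53) reach furthest left, and the vacuolar ATPase (9 of 15) and serpins (11 of 19) furthest right.

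Other lists had members in both directions, beside 21.1% higher and 17.2% lower over all genes. Of 50 apoptosis and death receptor genes 13 rose and 12 fell, of 41 NF-κB pathway genes 13 and 10, of 29 Hippo pathway and YAP target genes 9 and 6, and of 25 genes of the tricarboxylic acid cycle 5 and 4 (1 and 11 against untreated cells). Of 24 Notch genes 1 rose and 3 fell, but 6 rose and 1 fell against untreated cells. Of 16 oestrogen and glucocorticoid receptor genes and targets, a list of interest because 4-OHT binds oestrogen receptors, 2 rose and 1 fell, and 4 and 0 against untreated cells. Of 24 genes of ethanol and aldehyde metabolism 9 rose and 5 fell against ethanol, and 5 rose and 10 fell against untreated cells. Of 58 primary cilium genes 7 rose and 15 fell, and 2 and 27 against untreated cells.

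For some genes the ethanol libraries, not the 4-OHT ones, stood apart from the untreated cells. Ethanol against untreated passed for 14.9% of genes. Zfp574 measured 379.9 and 291 CPM untreated, 184 and 159.9 CPM with ethanol and 324 and 337 CPM with 4-OHT, and its rise against ethanol of 0.94 (adjusted p = 1.69e-08) led back into the untreated range. Ptgs1 (cyclooxygenase 1) behaved alike, with 16.8 and 18.8 CPM untreated, 11.5 and 11.5 CPM with ethanol and 18.8 and 18.4 CPM with 4-OHT. Arhgef6, an activator of Rac and Cdc42, had 34 and 34.9 CPM untreated, 22 and 22 CPM with ethanol and 35.5 and 36 CPM with 4-OHT. 4-OHT against untreated passed for 39.2% of genes, and in the same direction for all 15 of the largest rises and 13 of the 15 largest falls, Gdf6 and Gjb2 being the exceptions.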

How the data were processed

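Per the labels' protocols, total RNA (RNeasy Plus Mini) went into paired 75-base libraries of the TruSeq Stranded Total RNA type, with Ribo-Zero Gold removal of ribosomal RNA. The authors deposited 1 table of expected counts per gene symbol for the 12 libraries, made with cutadapt 1.11, STAR 2.5.2a and RSEM 1.2.30 on GRCm38 and analysed with edgeR, per the submitters' processing notes. How the counting treated strand is not stated in any source used. The counts were rounded to whole numbers. Genes were kept by edgeR's filterByExpr, scaled by TMM and tested with edgeR's quasi-likelihood test (edgeR 4.0.16, limma 3.58.1, R 4.3.3) in 1 model of all 12 libraries with a mean for each of 6 groups, which share 6 residual degrees of freedom. Adjusted p is Benjamini-Hochberg over all 17609 genes, and a call is an adjusted p under 0.05. SE is the log2 change over the root of the F statistic. CPM are scaled by library size and not by gene length, so levels are not compared between genes. Library totals of 20201855 to 36367012 limit the precision of faint genes. Gene types, exon numbers, spans and snoRNA sequences came from GENCODE M21, in which 16875 tested symbols had a unique match. Library medians by exon class used log2 of CPM over the 12-library mean, with 0.01 added to both.

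The text names Nabp1 and Nabp2 and the 15 largest called changes per direction. Genes so ranked had an average log2 CPM of 3 or more and no overlap of CPM. Left out of that ranking were predicted genes, snRNA and histone symbols and the listed interferon and repair genes. Also named are core and strongest called members of 47 gene lists and 13 symbol families, and the strongest of each RNA type. Of 2125 list entries 2121 matched the table. The compared groups, lists and members were chosen with earlier results of these data known. The 6 marker lists and the 2 lists left out of ranking are described above or not used further. The alternatives were DESeq2 1.42.0, upper quartile and RLE scaling, other filters, only the 4 compared libraries, ethanol and untreated libraries as 1 reference, a test against a fold of 1.2, and each library left out. The scaling alternatives for single genes and lists, and the split of the ranked genes at a mean of 8 CPM in the compared libraries, were added after seeing the data. The test was run on simulated counts with the same dispersion for every gene. That setting lacks the gene-wise spread of the data, so it does not give the error rate of the calls.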

Additional observations from a re-analysis of the deposited data

Results flagged for a closer look

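For the largest changes, the log2 effect of 4-OHT with Cre was compared with that without Cre in the same edgeR model. The difference (with Cre minus without) passed an adjusted p of 0.05 for both targets, at -2.08 for Nabp1 and -2.27 for Nabp2, for all 15 of the largest rises, and for 14 of the 15 largest falls, Gdf6 being the exception. Serpine2, Cd93, Txnrd2 and Nav3, which follow, averaged under 8 CPM in the 4 compared libraries.

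Among matrix genes and their inhibitors the difference was 1.76 for Tnn, 2.45 for Mmp13, 1.00 for Mmp3, 1.05 for Mfap5, 1.69 for Serpine2 and 0.44 for Clu. For regulators and other cell proteins it was 1.61 for Lmcd1, 1.38 for Rdm1, 1.43 for Cebpd and 1.35 for Fam43a. For receptors it was 1.19 for Cd93, 1.19 for Fzd10 and 1.07 for Fas, and for the snoRNAs 1.03 for Snord13 and 0.85 for Snord118. Mmp13, with the widest gap of the 15, rose with Cre and fell without.

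Among the falls, the difference was -1.26 for Hmga2, -1.15 for Cdk6 and -0.80 for Fosl1. It was -1.61 for Gjb2, -0.88 for Itga6, -0.88 for Flnc and -0.92 for Nav3. For enzymes and transporters it was -0.89 for Txnrd2, -0.88 for Aacs, -0.87 for Mccc2, -0.55 for Uckl1 and -0.64 for Tmem175, and for the RNA-binding protein gene Taf15 and the antisense RNA Kcnq1ot1 it was -1.13 and -1.28. No group had enough libraries for a check of single outlying libraries.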

How the results depend on the processing

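Each group has 2 libraries, and counts of called genes moved with the method. No paired analysis was possible because the groups compared share no replicate number in the labels. DESeq2 called 2180 genes higher, 171 higher and 65 lower at least 2-fold, 129 of the genes with 20 exons or more higher, 93 of those with 1 exon higher and 8 lower, 42 TEC RNAs inside genes of the same strand lower and 0 higher, and 6 sense intronic RNAs lower. A test against a fold of 1.2 called 1698 genes, 989 higher and 709 lower, 91 of them at least 2-fold lower. It called 227 of the genes with 20 exons or more lower and 70 higher, 59 with 1 exon higher and 4 lower, 48 TEC RNAs lower and 0 higher, and 6 sense intronic RNAs lower. A filter at 1 CPM in 2 libraries left 251 genes higher and 85 lower at least 2-fold. With only the 4 compared libraries 1 TEC RNA rose. Against the 4 ethanol and untreated libraries pooled, 6 TEC RNAs rose and 24 genes with 1 exon fell. That reference turned the log2 change of Nqo1 to -0.24 and the fitted value of Gdf6, which rests on few counts, to 0.36. For Gdf6 and Nqo1 the untreated libraries lay on the other side of the 4-OHT ones. Of the calls 55.1% were higher in the fit reported, against 47.5% with DESeq2, 49.1% with only the 4 libraries, 53.4% with upper quartile and 52.3% with RLE scaling.

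With 1 library of the comparison left out the ranges were 83 to 240 genes lower at least 2-fold, 152 to 191 genes with 20 exons or more higher, 6 to 19 genes with 1 exon lower, 35 to 118 TEC RNAs lower and 0 to 4 higher, and 9 to 18 sense intronic RNAs lower. Genes called without Cre ranged from 301 to 609. The causes were not tested. Of 116 named genes 104 kept their direction and their side of the threshold under every alternative run on single genes, and neither scaling changed the call of any of them.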
